A study of Mus musculus with 8 samples.

Results

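Aquaporins are membrane channels for water, and the 3 that are followed here in the mouse heart, Aqp1, Aqp4 and Aqp7, are 3 of the 33249 genes and own 9 of the 94947 transcripts in the deposited tables. They were picked by gene symbol, with earlier results of these same counts in view: Aqp7 had been among the genes chosen by their small p between the infarcted hearts of both genotypes. The level of each gene in each library is therefore given as a description with no p-value.

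RNA was sequenced from mouse myocardium in 4 groups of 2 libraries each: the labels name fl/fl-Sham and fl/fl-MI for the controls and CKO-Sham and CKO-MI for the deleted hearts. All mice carried floxed Piezo1 alleles, and Piezo1 encodes a cation channel opened by stretch of the membrane. Piezo1 Cko mice also carried a Myh6-Cre transgene whose recombinase is fused to parts of the estrogen receptor, so that tamoxifen, given to young mice before surgery, deletes Piezo1 in cardiomyocytes and in no other cell type by design; the fl/fl controls were littermates without the transgene, and whether they also received tamoxifen is not stated. MI stands for myocardial infarction after the left anterior descending artery was tied off for good in young adult mice, sham for the same operation without ligation, and MI hearts were taken at day 42. Nothing in the labels says that the libraries of a group came from separate animals, so the spread between them may in part be technical.

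A library held 73821747 to 88117573 counts, and as low counts pile up at multiples of 4, a read pair is taken here as about 4 counts, which would give 18455437 to 22029393 pairs. The check of the labels was not clean. Piezo1 itself lay at 72.2 and 82.0 CPM (counts scaled to library size with TMM factors) in fl/fl-Sham, 76.7 and 88.3 in CKO-Sham, 53.5 and 64.8 in fl/fl-MI and 56.3 and 64.6 in CKO-MI, so it was not lower in the CKO libraries of the whole tissue. Esr1, whose hormone-binding part the transgene contains, was at 707.0 and 402.4 CPM in CKO-MI, but also at 331.3 CPM in the library labelled as fl/fl-MI 2 and at only 5.52 and 7.60 CPM in CKO-Sham, against 6.41 to 8.36 CPM in the remaining libraries. The library labelled fl/fl-MI 2 further held 19857 CPM over 5 atrial marker genes, including Bmp10 and Myl4, against at most 4450 CPM elsewhere. Genotype names below are those of the labels, and values that rest on that library are given with and without it.

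Aqp1 and Aqp4 belong to the water-selective aquaporins, which pass water along osmotic gradients and exclude most solutes. Aqp1 sits in the membranes of capillary endothelium and red blood cells, and in the heart it is best known as an endothelial water channel. Aqp4 is the main water channel of astrocyte end-feet and is also held at the sarcolemma of skeletal muscle by the dystrophin-associated complex. Aqp7 is an aquaglyceroporin: it passes glycerol as well as water, and is known from adipocytes, which release glycerol through it during lipolysis, and from capillary endothelium.

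Aqp1 (ENSMUSG00000004655) lies on the plus strand at chr6:55336432-55348555 and Aqp7 (ENSMUSG00000028427) on the minus strand at chr4:41033074-41048139, in coordinates that equal those of GENCODE M21 on GRCm38. Aqp1 and Aqp7 were both far lower in every MI library than in any sham library, and the 250 bases before the start site that RefSeq gives each of them (GRCm38.p6) are shown for that reason, 5′ to 3′ on the strand of the gene. The Aqp1 stretch is chr6:55336049-55336298, and the RefSeq start after it lies 133 bases before that of the deposited transcript. The Aqp7 stretch is chr4:41048137-41048386, and the deposited transcript starts 3 bases inside it. Capitals mark matches, on either strand, to any of 5 short words: the nuclear receptor word AGGTCA, the GATA word GATAAG, the GC box GGGCGG, the ETS word TTCCGG and the TATA word TATAAA.
Aqp1: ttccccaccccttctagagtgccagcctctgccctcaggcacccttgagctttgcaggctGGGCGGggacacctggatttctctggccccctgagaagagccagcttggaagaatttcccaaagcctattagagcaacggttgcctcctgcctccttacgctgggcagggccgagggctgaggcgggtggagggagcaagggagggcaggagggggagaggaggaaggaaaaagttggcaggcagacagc
Aqp7: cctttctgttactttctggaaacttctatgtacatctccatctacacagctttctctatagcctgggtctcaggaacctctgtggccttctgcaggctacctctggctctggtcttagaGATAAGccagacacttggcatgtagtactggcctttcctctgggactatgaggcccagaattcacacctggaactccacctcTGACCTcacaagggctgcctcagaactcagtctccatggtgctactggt
The Aqp1 stretch held 1 GC box and none of the other words, and that word was found in 32.7% of the 32851 RefSeq windows of the same length. The Aqp7 stretch held 1 AGGTCA, read on the opposite strand, and 1 GATAAG, which were found in 14.02% and 6.55% of the windows. No word was shared by both stretches, and GC content was 62% for Aqp1 and 50.8% for Aqp7, with a median of 52.4% over all windows. These matches describe letters in a window and say nothing of binding.

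Aqp1 was one of the more abundant messages of the sham heart. Its level was 173.5 and 201.1 FPKM (fragments scaled to transcript length and library size) in fl/fl-Sham and 205.8 and 191.9 FPKM in CKO-Sham, and averaged over all 8 libraries it exceeded 98.8% of the 14028 genes tested. In fl/fl-MI it was 60.0 and 102.7 FPKM, and in CKO-MI 104.0 and 60.7 FPKM. All 4 MI libraries thus lay below all 4 sham libraries. The share of all genes that separate by surgery like this is not given, so it is a description only. In each genotype 1 MI library was close to 60 and the other close to 100.

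As log2 fold changes of the edgeR fit, Aqp1 differed by -1.73 (SE 0.41) in fl/fl-MI against fl/fl-Sham, which is 3.32-fold lower, and by -1.80 (SE 0.41) in CKO-MI against CKO-Sham, which is 3.49-fold lower. Only 332 of the 14028 tested genes had a lower change in the first comparison and 355 in the second. Between genotypes, CKO against fl/fl, the values were within their SE of 0: 0.02 (SE 0.40) for the MI hearts and 0.10 (SE 0.40) for the sham hearts. The MI value rested on single libraries. It was 0.61 without the library labelled as fl/fl-MI 2, and -0.55 at the lowest with another library left out. In order, Aqp1 stood at 199 ± 9.82 FPKM (SD, n = 2) in CKO-Sham, 187 ± 19.5 in fl/fl-Sham, 82.3 ± 30.6 in CKO-MI and 81.4 ± 30.2 in fl/fl-MI, and neighbours in this order differed by less than their spread except at the step from sham to MI. Without the library labelled as fl/fl-MI 2 the change in fl/fl hearts was -2.32, and without fl/fl-MI 1 it was -1.34. The change in CKO hearts was -2.41 without CKO-MI 1 and -1.39 without CKO-MI 2. Where a library is left out, its group's other one is taken to vary as the remaining groups do.

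Aqp7 stood roughly 1 order of magnitude below Aqp1 in sham hearts and showed the larger difference after MI. It was at 15.1 and 17.2 FPKM in fl/fl-Sham and at 19.0 and 18.03 FPKM in CKO-Sham. In fl/fl-MI it was at 2.02 and 1.34 FPKM, and in CKO-MI at 3.13 and 3.70 FPKM. No MI library came near a sham library, and here too the share of all genes that separate by surgery is not given. Within MI both CKO values lay above both fl/fl values, on the contrast by which Aqp7 was chosen. How many of all genes separate in this way is not given, so nothing is read from it.

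Its log2 fold change was -3.84 (SE 0.16) in fl/fl-MI against fl/fl-Sham, or 14.3-fold lower, and only 9 of the 14028 tested genes had a lower value. In CKO-MI against CKO-Sham it was -3.01 (SE 0.16), or 8.03-fold lower, with 37 genes below it. Aqp7 was 2.06-fold higher in CKO-MI than in fl/fl-MI, a log2 fold change of 1.04 (SE 0.15), and the sham groups differed by 0.21 (SE 0.14) on the same scale, CKO being higher. The difference between the 2 MI effects, the interaction of genotype and MI, was 0.83 (SE 0.21). In order, Aqp7 stood at 18.5 ± 0.714 FPKM (SD, n = 2) in CKO-Sham, 16.1 ± 1.48 in fl/fl-Sham, 3.41 ± 0.400 in CKO-MI and 1.68 ± 0.479 in fl/fl-MI. The 2.06-fold difference between the MI groups is the contrast on which Aqp7 was selected, and it is a description only. It was 0.88 on the log2 scale, just under 2-fold, without the library labelled as fl/fl-MI 2, and 1.24 without fl/fl-MI 1.

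Aqp4 (ENSMUSG00000024411) lies on the minus strand at chr18:15389496-15410982, where the predicted gene Gm50048 overlaps it on the other strand with no more than 6 counts in any library. It was a rare message, with 113 to 692 counts, or about 28 to 173 read pairs, per library, and its mean exceeded just 6.65% of the tested genes. It lay at 0.656 and 0.622 FPKM in fl/fl-Sham and at 1.21 and 0.674 FPKM in CKO-Sham. In fl/fl-MI the libraries gave 0.384 and 1.41 FPKM, and in CKO-MI 0.232 and 0.256 FPKM. The library labelled fl/fl-MI 2 was the highest of all 8 in FPKM, while the other 3 MI libraries were below every sham library. In TMM-scaled CPM the order at the top was turned, with 9.43 in CKO-Sham 1 and 8.10 in that library.

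The log2 fold change of Aqp4 was -2.51 (SE 0.66) in CKO-MI against CKO-Sham, which is 5.69-fold lower, and -0.01 (SE 0.62) in fl/fl-MI against fl/fl-Sham. Between genotypes it was -1.94 (SE 0.64) for the MI hearts, CKO being lower, and 0.56 (SE 0.62) for the sham hearts. Ordered by FPKM, CKO-Sham (0.943 ± 0.381, SD, n = 2), fl/fl-MI (0.896 ± 0.723) and fl/fl-Sham (0.639 ± 0.0242) differed by less than their spread, and CKO-MI (0.244 ± 0.0169) lay below all of them. The fl/fl value turns on 1 library. Without the library labelled as fl/fl-MI 2, Aqp4 was lower after MI in fl/fl hearts too, at -1.42, and the difference between the MI groups shrank to -0.53. There the atrial marker sum was the highest and the sum of 4 endocardial markers, among them Npr3 and Cytl1, was 343 CPM against 47.0 to 172 CPM elsewhere. All 4 endocardial and all 5 atrial markers were called higher in fl/fl-MI against its sham group, where 8.21% of all genes were. Their median changes there were 2.25 and 6.70, and 1.59 and -0.35 without that library. The part of such cells in the Aqp4 level was not tested.

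**Figure D1:**
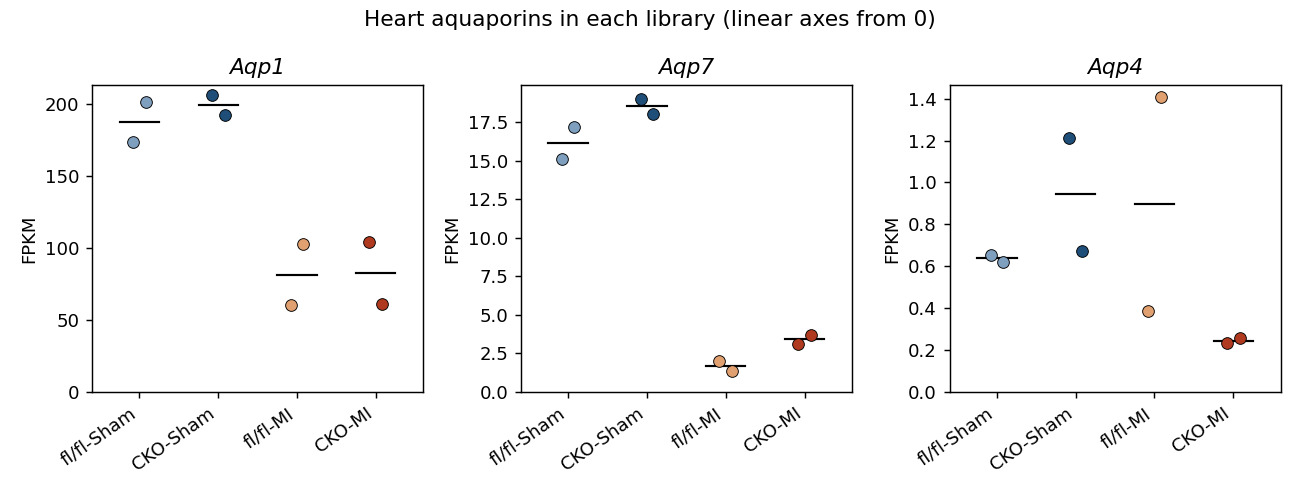
FPKM of Aqp1, Aqp7 and Aqp4 (vertical axes, linear, from 0) in the 8 libraries by group, with each point a library and each bar the mean of 2. Aqp1 and Aqp7 lie lower in all 4 MI libraries than in any sham library, whereas Aqp4 is highest in 1 fl/fl-MI library at 1.41 FPKM and lowest in CKO-MI.

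A gene was called when its unadjusted p in the edgeR fit was under 0.05 and its change was at least 2-fold. By that rule 2 of the 3 genes, Aqp1 and Aqp7, were called lower in fl/fl-MI against fl/fl-Sham, where 7.22% of all tested genes were called lower. All 3 were called lower in CKO-MI against CKO-Sham, where 9.35% were. In CKO-MI against fl/fl-MI, Aqp7 was called higher, as were 0.492% of tested genes, and Aqp4 lower, as were 2.72%. None of the 3 was called between the sham groups, where 0.891% of genes were called in either direction, and Aqp4 alone was called in the interaction, where 2.93% were called with a lower and 1.17% with a higher value. As the genes were picked on these contrasts, nothing is read from these counts. Without the library labelled as fl/fl-MI 2 the median change of the 3 was -2.32 in fl/fl and -2.51 in CKO hearts. Over all genes the medians were then 0.03 and 0.01. Between the MI groups Aqp1, Aqp4 and Aqp7 then differed by 0.61, -0.53 and 0.88.

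The size of the MI change depends on how libraries are scaled. Transcripts of the mitochondrial genome took 43.1% to 46.4% of the counts in sham and 19.9% to 24.2% in MI. The part of this share in the FPKM and TPM values below was not tested. With TMM scaling the median change over all tested genes was 0.05 in fl/fl and 0.01 in CKO hearts, on log2(FPKM + 1) it was 0.42 and 0.39, and on log2(TPM + 1) 0.93 and 0.90. Genes called lower and higher in fl/fl hearts were 7.22% and 8.21% with TMM, but on log2(FPKM + 1) 1.45% were called lower out of 14.1% in all, and on log2(TPM + 1) 0.577% out of 44.6%. Aqp1 kept its direction under all of these, with -1.24 and -1.31 on log2(FPKM + 1) and -0.67 and -0.75 on log2(TPM + 1), as did Aqp7, with -2.40 and -1.73 on log2(TPM + 1). The fl/fl value of Aqp4, near 0, took either sign.

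**Figure D2:**
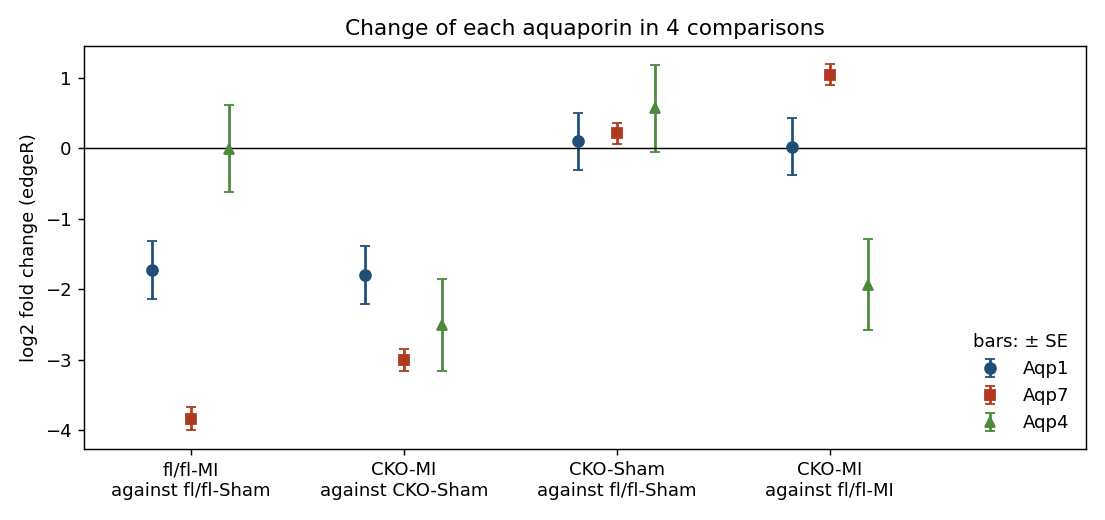
Log2 fold changes of Aqp1, Aqp7 and Aqp4 (vertical axis, edgeR with TMM scaling, bars ± SE, 2 libraries a group) in 4 comparisons. Aqp7 lies at -3.84 and -3.01 after MI with short bars, Aqp1 at -1.73 and -1.80, and Aqp4 at -0.01 in fl/fl and -2.51 in CKO hearts with long bars.

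Endothelial markers were also lower after MI, and bulk tissue cannot separate the 2 readings: fewer cells of a type and less RNA per cell cannot be told apart. Of 8 vascular endothelial markers, 6 were called lower in fl/fl-MI and all 8 in CKO-MI, where 7.22% and 9.35% of all genes were. Their median log2 fold changes were -1.61 and -1.34. Cdh5, the adhesion molecule of endothelial junctions, fell by 1.62 (adjusted p = 0.00728) and by 1.35 (adjusted p = 0.00926) on the log2 scale. Pecam1, another junction protein, changed by -0.76 in fl/fl (adjusted p = 0.0771) and fell by 1.01 in CKO hearts (adjusted p = 0.0296). The lowest member in both was Egfl7, an endothelial secreted factor, at -1.87 and -2.14, and the highest was Emcn, a sialomucin, at -0.49 in fl/fl and Pecam1 in CKO hearts. None of the 8 markers was called between the MI groups, where 3.21% of genes were called. Among 7 capillary markers, 7 were called lower in fl/fl-MI (6 at an adjusted p under 0.05) and 6 in CKO-MI, with medians of -1.89 and -2.13, and Gpihbp1, which anchors lipoprotein lipase on capillaries, fell by 2.06 (adjusted p = 0.0134) and 2.16 (adjusted p = 0.01). Without the library labelled as fl/fl-MI 2 the vascular and capillary medians in fl/fl hearts were -1.84 and -2.08, against 0.03 over all genes.

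Set against those markers within each library, the reading for Aqp1 changed with the marker list used. The vascular endothelial marker sum was 30.0%, 44.8%, 41.99% and 38.3% of its sham mean in fl/fl-MI 1 and 2 and CKO-MI 1 and 2, and Aqp1 was at 19.3%, 39.0%, 39.4% and 19.8% of its own. As a share of that sum in CPM, Aqp1 made up 32.2% to 34.5% in the sham libraries and 21.4%, 28.8%, 31.1% and 17.1% in the MI libraries, in the same order. Aqp1 was thus further below its sham mean than the vascular sum in all 4 MI libraries, and closest to that sum in CKO-MI 1. Against the capillary sum this did not hold in fl/fl-MI 2. As a share of the capillary sum, Aqp1 made up 18.8% to 21.1% in sham and 12.1%, 22.0%, 15.7% and 7.70% in the MI libraries. Aqp7 was further below its sham mean than the capillary marker sum in every MI library: it was at 7.26%, 5.71%, 13.3% and 13.4% of its sham mean, while that sum was at 32.2%, 35.6%, 50.5% and 51.5%. Single markers differed from the sum: Car4, a member of the capillary list, was at 6.42%, 8.79%, 12.5% and 12.9% of its sham mean, below Aqp7 in 3 of the 4 libraries. As a share of the capillary sum, Aqp7 made up 1.84% to 2.13% in sham, 0.438% and 0.312% in fl/fl-MI and 0.511% and 0.507% in CKO-MI. The capillary sum was itself higher in both CKO-MI libraries (1603 and 1636 CPM) than in both fl/fl-MI libraries (1022 and 1130 CPM), but this rested on Cd36. Summed without Cd36, which was done after the data were seen, the other 6 capillary markers overlapped between the MI groups. They gave 487 and 338 CPM in CKO-MI and 352 and 375 CPM in fl/fl-MI. In the library order above they were at 23.0%, 24.6%, 31.9% and 22.1% of their sham mean. Aqp7 was below this shorter sum in all 4 MI libraries, by less than with Cd36 counted. Aqp1 was above it in fl/fl-MI 2 and CKO-MI 1, and below it in fl/fl-MI 1 and CKO-MI 2.

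**Figure D3:**
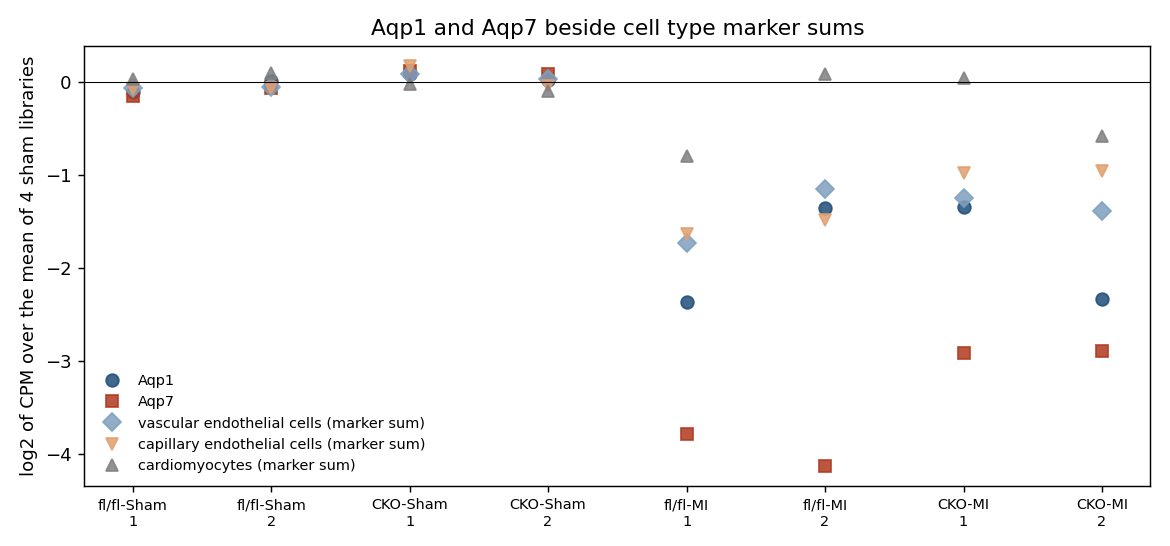
Log2 of CPM over the mean of the 4 sham libraries (vertical axis) for Aqp1, Aqp7 and the summed CPM of vascular endothelial (8 genes), capillary endothelial (7 genes) and cardiomyocyte (8 genes) markers in each of the 8 libraries. Aqp7 is the lowest symbol in all 4 MI libraries, at 5.71% to 13.4% of its sham mean. Aqp1 lies below the vascular sum in all 4 and closest to it in CKO-MI 1.

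Other cell types were read from marker lists of the same kind. Over all tested genes 7.22% were called lower and 8.21% higher in fl/fl-MI, and 9.35% lower and 7.63% higher in CKO-MI, each against its sham group. Cardiomyocyte markers, whose sum over 8 genes was 34487 to 39530 CPM in sham, were at 21301 and 39375 CPM in fl/fl-MI and at 38153 and 24676 CPM in CKO-MI, so that the MI libraries with the lower Aqp1 were also those with the lower cardiomyocyte sum. Of these 8 markers, 2 were called lower in fl/fl-MI, Myl2 and Tnni3, and in CKO-MI Ryr2 and Actc1 were called higher and Tnni3 lower. Myh6 and Tnnt2 were not called. The median of the 8 in fl/fl hearts was -0.38, and -0.82 without the library labelled as fl/fl-MI 2. Smooth muscle and pericyte markers summed to 1396 to 1539 CPM in sham and 572 to 787 CPM in MI, and 2 of 7 were called lower in each genotype, while Myh11 and Acta2 were not. Fibroblast markers summed to 1190 to 1262 CPM in sham and 1788 to 4604 CPM in MI. Adipocyte markers, which include Adipoq and Plin1, summed to 58.7 to 86.5 CPM in sham and 48.7 to 192 CPM in MI, the highest in the library labelled as fl/fl-MI 2, and none of the 6 was called in either MI comparison. With that library left out the adipocyte median in fl/fl hearts was -0.91, against 0.28 with it. Aqp7 was lowest in the library left out. Erythroid markers, which include Hba-a1 and Hba-a2, summed to 201 and 551 CPM in fl/fl-Sham, 79.7 and 109 CPM in CKO-Sham and 272 to 754 CPM in MI, and 5 of 5 tested were called higher in CKO-MI and 0 of 5 in fl/fl-MI against their sham groups, where 7.63% and 8.21% of all genes were. All 5 were called lower between the sham groups, CKO against fl/fl, where 0.364% of all genes were. For Aqp4, skeletal muscle markers summed to 11.9 to 55.0 CPM over 7 genes, highest in CKO-MI 1, with Myh4 and Myh1 too low to test. Glial markers summed to 23.5 to 35.5 CPM in sham, 20.5 and 21.1 CPM in CKO-MI, and 30.5 and 35.1 CPM in the other MI group, so that the CKO-MI libraries were the lowest for them as for Aqp4. Of 5 glial markers tested, 2 were called lower in CKO-MI against CKO-Sham. Against fl/fl-MI 1 was called lower, where 2.72% of all genes were. Slc1a2 was not called and Gfap was too low to test. The part of these cells in the Aqp4 difference was not tested. Macrophage markers, which include Adgre1, Cd68 and Lyz2, summed to 329 to 844 CPM and were highest in fl/fl-MI 1, where Lyz2 alone gave 676 CPM. Mesothelial markers, which include Upk3b and Msln, summed to 15.0 to 17.4 CPM in sham and 20.97 to 153 CPM in MI, with 3 of 4 called higher in each genotype (Upk3b by 4.94, adjusted p = 0.00773, and by 2.49, adjusted p = 0.0316). Lung epithelial markers summed to at most 2.64 CPM, of which Aqp5 gave 2.52 CPM. Sftpc and Sftpb were each at 0 in 7 of 8 libraries, and in the library labelled as fl/fl-MI 2 the sum of 2.40 CPM held 1.35 from Aqp5, 0.65 from Scgb1a1 and 0.40 from Sftpc.

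Of the other 9 aquaporin genes, Aqp2 and Aqp8 passed the limit of 0.5 FPKM for a test, with means of 1.33 and 1.495 FPKM, both above that of Aqp4 at 0.68. Mip, Aqp3, Aqp6, Aqp9, Aqp11 and Aqp12 had mean levels of 0.00577 to 0.126 FPKM and were not tested. Aqp11, an aquaporin of internal membranes, was lower in every MI library than in any sham library. It was at 0.145 to 0.180 FPKM in sham and 0.0699 to 0.111 FPKM in MI. So was Mip, at 0.0239 to 0.0730 FPKM in sham and 0 to 0.0224 FPKM in MI, with at most 12 counts in a library. Aqp2, the vasopressin-regulated water channel of the kidney collecting duct, was at 0.0739 and 0.103 FPKM in fl/fl-Sham, 0.0962 and 0.290 in CKO-Sham, 2.64 and 0.127 in fl/fl-MI, and 1.74 and 5.56 in CKO-MI. In 3 of the 4 MI libraries it was above every sham library, the exception being the library labelled as fl/fl-MI 2. Its change was 3.24 (SE 1.30, adjusted p = 0.121) in fl/fl and 3.61 (SE 1.26, adjusted p = 0.0760) in CKO hearts, and neither passed the adjusted test. In fl/fl hearts it was 0.02 without fl/fl-MI 1 and 4.15 without fl/fl-MI 2.

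Aqp5, a channel of gland and lung epithelium that neighbours Aqp2 and Aqp6 on chromosome 15, was at 0 to 0.0385 FPKM in sham and at 0.569 and 0.561 FPKM in fl/fl-MI and 0.194 and 1.22 FPKM in CKO-MI. Its groups by surgery did not overlap, but its mean of 0.325 FPKM was under the limit of 0.5 for a test. The share of all genes without such overlap is not given. Aqp8, which passes water and ammonia, lay between 0.858 and 1.36 FPKM in sham and between 0.957 and 2.52 FPKM in MI, with changes of -0.02 (SE 0.41, adjusted p = 0.98) in fl/fl and 0.48 (SE 0.41, adjusted p = 0.42) in CKO hearts.

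**Figure D4:**
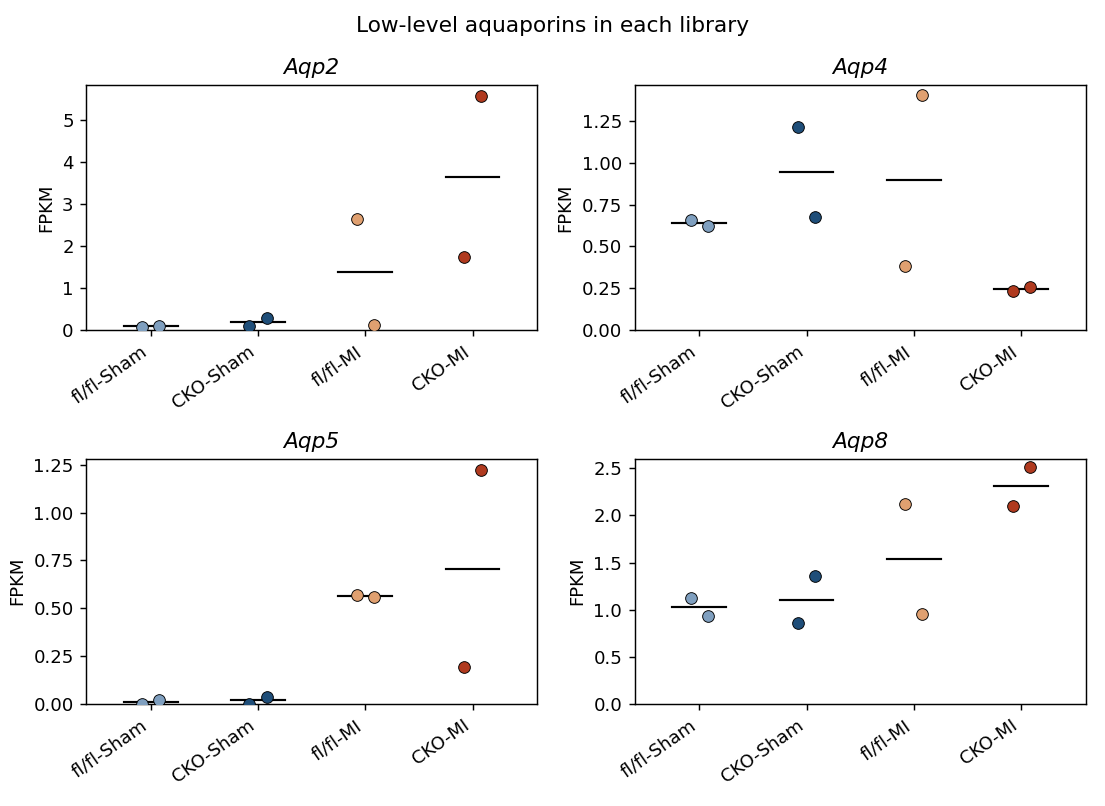
FPKM of Aqp2, Aqp4, Aqp5 and Aqp8 (vertical axes, linear, from 0) in the 8 libraries by group, with each point a library and each bar the mean of 2. Aqp2 is high in 3 of 4 MI libraries, up to 5.56 FPKM, Aqp5 is above 0.19 FPKM in all 4 MI libraries and below 0.04 FPKM in sham, and Aqp8 overlaps between surgeries.

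Glycerol that passes Aqp7 comes from, or goes into, triglyceride, and 22 genes of glycerol and triglyceride handling were read beside it. In fl/fl-MI 4 of 22 were called lower and none higher, where 7.22% of all genes were called lower and 8.21% higher. The list median was -0.19. Those named by the smallest p were Mgll, the monoglyceride lipase that frees the last fatty acid and leaves glycerol (-1.77, SE 0.18, adjusted p = 0.00397), Cd36, a fatty acid transporter (-1.23, SE 0.19, adjusted p = 0.00979), and Gpihbp1. In CKO-MI 4 were called lower and 3 higher, where 9.35% of all genes were called lower and 7.63% higher, and the median was -0.04. Gpam, which starts glycerolipid synthesis from glycerol 3-phosphate, rose by 1.76 (SE 0.19, adjusted p = 0.00423), whereas Gpihbp1 fell by 2.16 and Mgll fell by 1.03 (SE 0.18, adjusted p = 0.0107). Gk, the kinase that turns glycerol into glycerol 3-phosphate, lay at 2.31 to 2.97 FPKM in sham and 3.20 to 6.04 FPKM in MI and was not called in any comparison. With all libraries, none of the 22 was called between the MI groups, where 3.21% of all genes were. In the interaction 2, Gpam and Plin5, were called higher, where 1.17% of all genes were. None of these 22 genes had a log2 fold change after MI as low as that of Aqp7. Gpihbp1 and Cd36 are also in the capillary list. Without the library labelled as fl/fl-MI 2 the list median in fl/fl hearts was -0.52, against 0.03 over all genes. In CKO-MI against fl/fl-MI it was then 0.44, and 0.15 with all libraries. In the interaction it was 0.64 without that library, and 0.27 with all libraries.

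**Figure D5:**
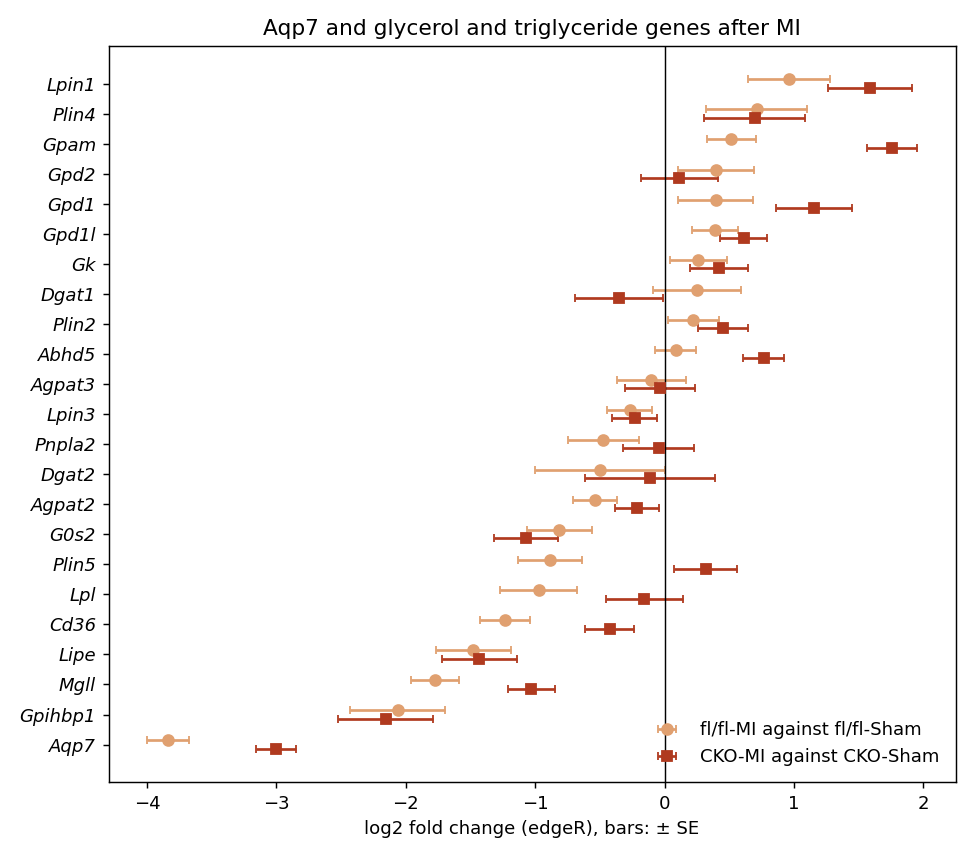
Log2 fold changes (horizontal axis, edgeR, bars ± SE) of Aqp7 and of 22 genes of glycerol and triglyceride handling after MI in fl/fl (circles) and CKO hearts (squares), sorted by the fl/fl value. Aqp7, at -3.84 and -3.01, lies below all 22, of which Gpihbp1 at -2.06 and -2.16 is the next.

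Carbonic anhydrases and transporters of gas or bicarbonate were read beside Aqp1, and 11 of the 15 listed were tested. In fl/fl-MI 4 were called lower and none higher, and in CKO-MI 3 were called lower and none higher, with medians of -0.44 and -0.62, where 7.22% and 9.35% of all genes were called lower. Without the library labelled as fl/fl-MI 2 the median in fl/fl hearts was -1.05, against 0.03 over all genes. Car4, the carbonic anhydrase anchored on the capillary surface, fell by 3.71 (SE 0.21, adjusted p = 0.00127) and by 2.98 (SE 0.20, adjusted p = 0.00298), and in FPKM it went from 31.0 to 39.2 in sham libraries to 3.62 and 4.22 in fl/fl-MI and 6.01 and 7.24 in CKO-MI. Its values thus lay beside those of Aqp7, at -3.84 and -3.01. Car8, a family member without catalytic activity, fell by 1.32 (adjusted p = 0.0340) and 1.64 (adjusted p = 0.0152). The bicarbonate exchanger Slc4a3 fell by 1.12 in fl/fl hearts (adjusted p = 0.0359) and Car15 by 1.87 in CKO hearts (adjusted p = 0.0264). None was called between the MI groups with all libraries, where the list median was 0.07. It was 0.28 without the library labelled as fl/fl-MI 2.

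Dystrophin-associated proteins hold Aqp4 at the membrane in other tissues, and 8 of the 10 listed could be tested. Of these, 1 was called higher and 1 lower in fl/fl-MI and 3 higher and 1 lower in CKO-MI, with medians of 0.43 and 0.62. Over all genes 8.21% were called higher and 7.22% lower in fl/fl-MI and 7.63% and 9.35% in CKO-MI, so 1 of 8 in each direction is near the background. Dag1, the dystroglycan precursor, rose by 1.24 in fl/fl hearts (SE 0.19, adjusted p = 0.00837), and in CKO hearts Dmd, which encodes dystrophin, rose by 1.43 (SE 0.16, adjusted p = 0.00423) and Dtna, a dystrobrevin, by 1.24 (SE 0.16, adjusted p = 0.00514). Agrn, a matrix proteoglycan that binds dystroglycan, fell by 1.34 (adjusted p = 0.00502) and 1.53 (adjusted p = 0.00400). None of the 8 was called between the MI groups.

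Of 17 tested genes of cell volume control, 1 was called higher and 2 lower in fl/fl-MI, namely Slc5a3, an inositol importer (1.18, adjusted p = 0.0418), Lrrc8c, a volume-regulated anion channel subunit (-1.03, adjusted p = 0.0110), and Trpv4, an osmosensitive cation channel (-1.13, adjusted p = 0.0253). In CKO-MI 1 was called, the kinase Wnk1, at 1.198 (SE 0.19, adjusted p = 0.00831), and none between the MI groups. The 3 of 17 in fl/fl-MI are near the 15.4% of all genes called there in either direction, and in CKO-MI 17% of all genes were.

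The genes whose log2(CPM + 0.5) followed each aquaporin most closely over the 8 libraries, among 5523 or 5524 genes of at least 5 FPKM, are given with Pearson's r as a description; the points share the sham and MI split. For Aqp7 they were Fhod1 (0.998), Caskin2 (0.997), Rapgef3 (0.996), Cyyr1 (0.996) and Gm49396 (0.996). Their changes in fl/fl-MI were smaller, from -2.31 for Cyyr1 to -1.22 for Gm49396, against -3.84 for Aqp7. For Aqp1 they were Gadd45gip1 (0.994), Asb14 (0.994), Lrrfip2 (0.994), Rasip1 (0.994) and Sox17 (0.992), of which Sox17 and Rasip1 are known from endothelium. For Aqp4 they were Ccnl1 (0.971), Pim3 (0.967), Klc4 (0.966), Srsf5 (0.964) and Castor1 (0.963). Aqp1 and Aqp7 had r of 0.90 with each other over 8 libraries, but -0.14 over the 4 MI libraries alone. In FPKM, Aqp7 was 8.55% to 9.40% of Aqp1 in the sham libraries and 3.37%, 1.31%, 3.01% and 6.10% in fl/fl-MI 1 and 2 and CKO-MI 1 and 2.

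Of the genes near the aquaporins, Nfx1, 7081 bases from Aqp7, changed by -0.20 in fl/fl-MI and -0.21 in CKO-MI, and Aqp3, 44583 bases away, was near 0 FPKM throughout. Mindy4, the nearest tested gene to Aqp1 at 16210 bases, changed by -0.19 and -0.37, whereas Inmt, 161389 bases away, changed by -1.54 and -2.12. Kctd1, 238050 bases from Aqp4, changed by 1.03 and 0.88.

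The transcript table assigns Aqp1 a single transcript of 4 exons (ENSMUST00000004774). Aqp7 has 4, of which ENSMUST00000030136, with 8 exons and the upstream start, held 90.4% to 97.7% of its transcript FPKM in every library. The second, ENSMUST00000054945, starts inside the gene at base 41045448 and was the only other one with a mean of at least 0.5 FPKM. Of the FPKM of both, it took 2.64% and 7.80% in fl/fl-Sham, 7.22% and 1.49% in CKO-Sham, 2.73% and 3.79% in fl/fl-MI, and 4.45% and 0.751% in CKO-MI. It rested on only 6 to 27 counts in the MI libraries, and on 51 to 306 counts in sham. Its share averaged 2.93% ± 1.62 (SD, n = 4) in MI and 4.79% ± 3.19 (SD, n = 4) in sham, with p = 0.343 in a two-sided exact permutation test of the difference. Between CKO (3.48% ± 2.96) and fl/fl libraries (4.24% ± 2.43) p was 0.657 in the same exact test, whose smallest possible p is 0.0286. The lower Aqp7 level after MI was thus carried by the 8-exon transcript, from 16.4 to 19.9 FPKM in sham and from 1.45 to 4.09 FPKM in MI. Aqp4 has 4 transcripts, and its estimates changed hands between replicates: ENSMUST00000079081 held 94.5% and 18.1% in fl/fl-Sham, 59.5% and 93.1% in CKO-Sham, 83.6% and 77.9% in fl/fl-MI, and 100% and 0% in CKO-MI. Only 1 of these transcripts had a mean of at least 0.5 FPKM, so their shares were given no test. About 28 to 173 read pairs per library lay behind them.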

How the data were processed

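The authors extracted total RNA from myocardium, selected mRNA from it with oligo(dT) beads and sequenced 8 libraries. They deposited counts and FPKM per gene and per transcript, and the submitters' processing notes name cutadapt 1.9 and FastQC, while the aligner, counter and genome build are not given in the sources used here. Of the gene identifiers, 99.7% are in GENCODE M21 (GRCm38). FPKM is the authors' value scaled to length and library size. Low deposited counts pile up at multiples of 4, and 4 per read pair was assumed. Per the labels, the second cDNA strand was marked and removed, but whether counting used it is not stated.

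From the deposited counts, 14028 genes (mean FPKM 0.5 or more) were fitted with edgeR 4.0.16 (R 4.3.3; TMM, quasi-likelihood test, a mean per group, all 8 libraries) and p-values were adjusted by Benjamini-Hochberg over all of them. A call needs an unadjusted p under 0.05 and a 2-fold change. SE is the absolute log2 fold change divided by the square root of F. CPM uses TMM-scaled library sizes. Transcript shares were tested with SciPy 1.17.1 (exact permutation over libraries). Alternatives were limma 3.58.1 on log2(FPKM + 1), log2(FPKM + 0.1) and log2(TPM + 1), DESeq2 1.42.0, other filters, RLE scaling, fits without mitochondrial genes, with only the libraries compared, with a replicate block and without each library. Scripts were tested on simulated data. List medians without the library labelled as fl/fl-MI 2, capillary sums without Cd36, counts divided by 4 and a crossed block were added after seeing the data.

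The genes followed and all lists were chosen with earlier results of these data known. Named are Aqp1, Aqp4 and Aqp7, all other aquaporins, the 5 genes most correlated with each, up to 3 called genes with the smallest p per list and comparison, the first 2 genes of each marker list with, for endothelium, its lowest and highest member, and Piezo1 and Esr1. Other genes (Gk, Gpihbp1 and Mgll where not among the 3, Plin5, single markers called or of high level and neighbouring genes) were named after their values were seen. Motif words were chosen in the same way. No protein sequences were used here, and the value of 1 marker gene is not reported here.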

Additional observations from a re-analysis of the deposited data

Results flagged for a closer look

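Under the same contrast, MI against sham, the 2 genotypes differed at the call rule (unadjusted p under 0.05 and 2-fold) in the interaction of genotype and MI for Aqp4 and for 2 genes of the glycerol list. Among the marker lists, 4 of 5 atrial and 3 of 4 endocardial markers were also called lower in the interaction, where 2.93% of genes were. Their interaction medians were -8.10 and -2.77, and -0.97 and -1.60 without the library labelled as fl/fl-MI 2. With all libraries, other markers called lower in the interaction were Upk3b (-2.45), Acta2 (-1.43) and 1 glial marker, and 1 smooth muscle or pericyte marker was called higher. For Aqp4 the interaction was -2.50 (SE 0.89) on the log2 scale and, without the library labelled as fl/fl-MI 2, -1.09. Aqp4 was picked with these results known, so no p is given. For Gpam, the acyltransferase that starts glycerolipid synthesis, it was 1.24 (SE 0.27, edgeR adjusted p = 0.56): Gpam was at 8.86 and 9.21 FPKM in fl/fl-Sham, 6.02 and 6.46 in CKO-Sham, 23.5 and 15.2 in fl/fl-MI and 32.4 and 29.7 in CKO-MI. For Plin5, a coat protein of lipid droplets in oxidative tissue, it was 1.203 (SE 0.34, edgeR adjusted p = 0.574): Plin5 was at 22.2 and 24.6 FPKM in fl/fl-Sham, 20.6 and 17.2 in CKO-Sham, 16.1 and 20.8 in fl/fl-MI and 26.9 and 43.7 in CKO-MI. Neither passed edgeR's adjusted test, in which 0 of the 14028 genes did, while 1191 had an unadjusted p under 0.05 and 131 passed the adjusted test of DESeq2. Between the MI groups 0 genes passed in edgeR, with 1166 at an unadjusted p under 0.05, and 207 in DESeq2. Groups of 2 libraries were too small for a test of single libraries that stand apart.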

How the results depend on the processing

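Aqp1 and Aqp7 were lower after MI in both genotypes under every alternative run, and Aqp4 was lower in CKO-MI than in both other groups compared with it under all that could test it (a mean of 5 FPKM removes Aqp4, Aqp2 and Aqp8). On log2(TPM + 1) the MI changes in fl/fl and CKO hearts were -0.67 and -0.75 for Aqp1 and -2.40 and -1.73 for Aqp7, and that of Aqp4 in CKO hearts was -0.60. CKO-MI against fl/fl-MI gave 0.85 for Aqp7 and -0.81 for Aqp4, and the interaction 0.67 and -1.08. On log2(FPKM + 1) the Aqp7 values were -2.69, -2.15, 0.73 and 0.54 in the same order, and those of Aqp4 -0.63, -0.55 and -0.78. On log2(FPKM + 0.1) Aqp7 was -3.21 and -2.41 after MI, and Aqp4 was -1.55 in CKO hearts and -1.76 in the interaction. A pseudocount shrinks changes of low genes. Aqp7 in CKO hearts was -2.92 with no filter, -3.09 with a mean of 5 FPKM and -3.03 without mitochondrial genes.

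Genes called in fl/fl MI, CKO MI, CKO-MI against fl/fl-MI, the sham groups and the interaction were 2165, 2382, 450, 125 and 575. They were 6250, 5991, 256, 48 and 355 on log2(TPM + 1), 859, 1002, 107, 31 and 198 with a mean of 5 FPKM, 3441 and 3616 in the first 2 on log2(FPKM + 0.1), and 167, 35 and 285 in the last 3 on log2(FPKM + 1). With no filter they were 3466 in fl/fl MI and 1183, 557 and 1459 in the last 3, and with only the libraries compared 240 between MI and 236 between sham groups. The cause was not tested beyond the number of genes each filter keeps.

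Leaving out each library in turn, Aqp1 ranged from -2.32 to -1.34 (fl/fl MI), -2.41 to -1.39 (CKO MI), -0.55 to 0.61 (MI groups) and -0.65 to 0.52 (interaction). Aqp4 ranged from -1.42 to 0.66 (fl/fl MI), -2.86 to -2.05 (CKO MI), -2.62 to -0.53 (MI groups), 0.10 to 0.91 (sham groups) and -3.18 to -1.09 (interaction). Aqp7 ranged from -4.05 to -3.68 (fl/fl MI), 0.88 to 1.24 (MI groups) and 0.67 to 1.03 (interaction). Counts called ranged from 360 to 1613 between the MI groups, highest without fl/fl-MI 1, from 116 to 198 between sham groups, and from 322 to 1743 in the interaction. The difference in Aqp7 transcript share between CKO and fl/fl ranged from -2.01 to 0.42 percentage points, and turned sign without fl/fl-Sham 2 (0.42) and without CKO-MI 2 (0.14).

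The replicate numbers share no stated source, and same-numbered libraries did not deviate together (r from -0.20 to 0.05). With the replicate block Aqp1 changed by -1.73 and -1.80, Aqp7 by -3.84 and -3.00 and Aqp4 by -0.09 and -2.54 after MI, and 344 genes were called between the MI groups. With the block the Aqp7 share gave p = 0.389 (MI) and 0.667 (genotype) in the exact permutation test. A crossed block, added after seeing the data because r between the MI groups was -0.20, called 392.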
